A study of Mus musculus with 12 samples.

Results

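Open chromatin that lies far from any gene that encodes a protein was described here, as called by ATAC-seq in CD4+ T cells of mice. Overlapping peaks of the 12 libraries on chromosomes 1 to 19 were merged into 107713 regions, of which 84620 had a peak in at least 2 libraries. A region was a member where it also lay 100 kb or more from the body of every protein-coding gene of the GRCm38 annotation, and 5735 regions (6.78%) met this. The members nearest to the limit lay 100.044, 100.054 and 100.143 kb from a gene, and the nearest regions beyond it lay 99.984, 99.981 and 99.923 kb away. Another 2085 far regions had a peak in 1 library only and were left out.

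The libraries came from spleen of C57BL/6J mice, either wild type or lacking a super-enhancer that belongs to Ets1 (strain C57BL/6J-Ets1-SE-KO), and the labels used here gave no age. Naive CD4+ T cells were used directly or were polarized for 6 days in plates coated with anti-CD3, with soluble anti-CD28. Th1 cultures received IL-12 and IL-2, and Th2 cultures received IL-4 with an antibody to IFN-γ. Each of the 6 groups held 2 libraries: the polarized pairs were separate biological replicates, and each naive pair was made of 2 technical replicates of 1 biological sample, so naive differences between genotypes rest on 1 sample a side. The knockout is that of a regulatory region and not of the Ets1 gene, and no label restricts it to a cell type. The 2 Th2 knockout libraries carry titles that name Th1 cells, while their source name is Th2 cells. The source name was followed, and like the Th2 wild-type libraries these 2 had no peak at the Ifng promoter, where all 8 naive and Th1 libraries had one.

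ATAC-seq marks DNA that a transposase can reach, which in a cell is mostly DNA free of nucleosomes at promoters and enhancers. Enhancers bind transcription factors and can act over long distances by looping to a promoter, and several regulators of T cells sit beside wide intervals without other genes that hold many enhancers. Ets1 encodes a factor of the ETS family on which T cells depend, and the tested super-enhancer is a dense group of such elements beyond its own gene.

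No member overlaps a protein-coding gene by its definition, but some lie at the start of non-coding genes, and these show the letters of the far regions best. Of the members, 104 (1.81%) overlapped the window from 250 bases before to 50 bases after the start of 103 non-coding genes, taken with sequence from RefSeq (GRCm38.p6). A peak in all 12 libraries was held by 18 of the 104 (17.3%) and by 5.40% of the other members. The 6 windows printed here lie wholly inside a member, and were chosen after their values were seen, so that each pattern of opening is shown. Each is read 5′ to 3′ on the strand of the gene. Capitals mark the letters of a motif of AP-1 (TGANTCA), RUNX (TGTGGTT) or ETS factors (GGAAGT) on either strand.
Gm41331: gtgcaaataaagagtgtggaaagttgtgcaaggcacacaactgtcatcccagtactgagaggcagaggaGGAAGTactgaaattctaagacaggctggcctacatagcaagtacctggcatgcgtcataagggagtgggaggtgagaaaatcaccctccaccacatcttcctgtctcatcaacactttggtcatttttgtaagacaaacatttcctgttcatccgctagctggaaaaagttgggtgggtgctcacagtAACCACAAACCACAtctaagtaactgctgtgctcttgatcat
Morrbid: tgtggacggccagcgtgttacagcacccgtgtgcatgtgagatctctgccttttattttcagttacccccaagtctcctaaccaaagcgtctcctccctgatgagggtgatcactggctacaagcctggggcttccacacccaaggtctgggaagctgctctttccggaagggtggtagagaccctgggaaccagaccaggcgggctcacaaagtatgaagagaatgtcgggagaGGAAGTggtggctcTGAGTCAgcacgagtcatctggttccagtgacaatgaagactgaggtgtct
Gm38326: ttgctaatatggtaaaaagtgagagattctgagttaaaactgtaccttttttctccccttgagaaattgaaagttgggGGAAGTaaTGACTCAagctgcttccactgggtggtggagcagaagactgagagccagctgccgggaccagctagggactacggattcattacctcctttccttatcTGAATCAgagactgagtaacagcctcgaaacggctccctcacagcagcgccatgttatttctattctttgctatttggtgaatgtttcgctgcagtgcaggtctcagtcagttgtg
Gm30957: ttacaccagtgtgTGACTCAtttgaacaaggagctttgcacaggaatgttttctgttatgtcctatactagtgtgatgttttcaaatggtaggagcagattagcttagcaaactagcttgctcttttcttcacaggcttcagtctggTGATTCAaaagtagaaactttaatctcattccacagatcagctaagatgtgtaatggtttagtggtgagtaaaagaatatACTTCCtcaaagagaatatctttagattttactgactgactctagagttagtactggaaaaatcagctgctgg
2310003N18Rik: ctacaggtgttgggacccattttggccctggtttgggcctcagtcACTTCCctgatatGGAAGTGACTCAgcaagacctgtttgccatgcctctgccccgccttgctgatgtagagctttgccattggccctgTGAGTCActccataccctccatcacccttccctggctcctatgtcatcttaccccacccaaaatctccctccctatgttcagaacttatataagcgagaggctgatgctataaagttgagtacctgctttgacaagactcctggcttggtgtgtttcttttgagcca
Gm41259: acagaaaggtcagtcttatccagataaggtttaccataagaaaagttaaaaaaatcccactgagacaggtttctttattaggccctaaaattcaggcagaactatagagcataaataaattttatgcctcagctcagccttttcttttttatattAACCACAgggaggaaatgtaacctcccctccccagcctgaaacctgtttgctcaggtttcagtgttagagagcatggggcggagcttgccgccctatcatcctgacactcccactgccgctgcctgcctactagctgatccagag

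The first pair of windows was open in every library. That of Gm41331 lies at chr15:60141576-60141875 (+ strand), in a member at chr15:60141451-60142208, and holds the RUNX letters at 2 places side by side. Its peak stood at percentiles 95.7 to 99.6 of the 12 libraries. A percentile here is the rank of a peak by −log10 q within the autosomal list of its own library, since scores of different lists are not on 1 scale. Morrbid, a long non-coding RNA known to act on the neighbouring cell-death gene Bcl2l11, has its window at chr2:128429302-128429601 (− strand), with AP-1 and ETS letters, and percentiles of 46.1 to 81.3.

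The next pair was open in the 8 polarized libraries and in no naive one. The window of Gm38326 lies at chr3:60788111-60788410 (+ strand) between Mbnl1 and P2ry1, with percentiles of 95.9 to 99.5, and holds AP-1 letters at 2 places. Gm30957, at chr2:8946686-8946985 (+ strand), lies 910 kb from the nearest coding gene in the gap between Celf2 and Gata3, the gene of the main Th2 regulator. It also holds AP-1 letters at 2 places, and its percentiles were 9.5 to 79.5 in Th1 and 77.2 to 86.2 in Th2 libraries. The window of Gm33073, not printed, was open in the same 8 libraries and holds RUNX letters and no AP-1 letters.

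The last windows were each open in 1 cell state. That of 2310003N18Rik, at chr9:50233133-50233432 (− strand), was open in the 4 Th2 libraries only, with percentiles of 24.3 to 82.2. There 1 of the ETS matches shares its last base with an AP-1 match. The window of 1700011C11Rik, not printed, was also open in the 4 Th2 libraries only, and holds RUNX and ETS letters and no AP-1 letters. The window of Gm41259, at chr15:6044655-6044954 (− strand) between Ptger4 and Dab2, was open in the 4 naive libraries only, with percentiles of 21.1 to 42.9, and holds RUNX letters and no AP-1 letters.

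Over all 114 windows that overlap a member, AP-1 letters occurred in 21.1%, beside 7.84% of all 31396 autosomal promoter windows of the same length. RUNX letters occurred in 14.9% beside 5.32%, the GATA letters AGATAAG in 8.77% beside 3.03%, and the ETS letters in 30.7% beside 23.9%. The shares for TCF and LEF (CTTTGAA, 7.02% beside 5.09%), NFAT (TGGAAAA, 8.77% beside 6.73%), STAT (TTCNNNGAA, 9.65% beside 8.35%) and T-box factors (GGTGTGA, 4.39% beside 4.00%) lay nearer to each other. The letters of IRF (GAAA and GAAA with NN between them, 2.63% beside 3.46%) and CTCF (CCANNAG, then NN, then GGC, 0.877% beside 2.47%) were less frequent in the members' windows. Among the 11198 other windows of non-coding genes the shares were 9.13% for AP-1, 6.22% for RUNX, 3.78% for GATA and 21.9% for ETS. There TCF and LEF had 6.23%, NFAT 8.03%, STAT 9.36%, T-box factors 4.57%, IRF 3.61% and CTCF 2.63%. The 114 windows lie in 104 members, and where windows overlap the same match is counted in each, as for the RUNX letters of Gm41331. All these matches, on both strands, describe letters and not binding, and the windows were a small and selected share of the members. Their median GC content was 47.2%, beside 48.3% of the other windows of non-coding genes and 53.0% of all windows. Sequences of the other members were not read, since no genome was used here.

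The members were short and mostly open in few libraries. Their median width was 496 bp, beside 515 bp of the other regions, and together they covered 3173 kb. The median distance to a protein-coding gene was 188 kb with quartiles of 134 and 309 kb. As many as 595 lay 500 kb or more away, and 108 lay 1 Mb or more away. Members clustered along the chromosomes: the median distance to the next member was 5.002 kb, and 3897 (68.0%) had another within 10 kb. Exactly 2 libraries had a peak in 1425 members (24.8%), beside 19.1% of the other regions. For 807 of them the 2 libraries were the technical pair of naive cells, 627 of wild type and 180 of knockout, so these have no other biological sample behind them.

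**Figure D1:**
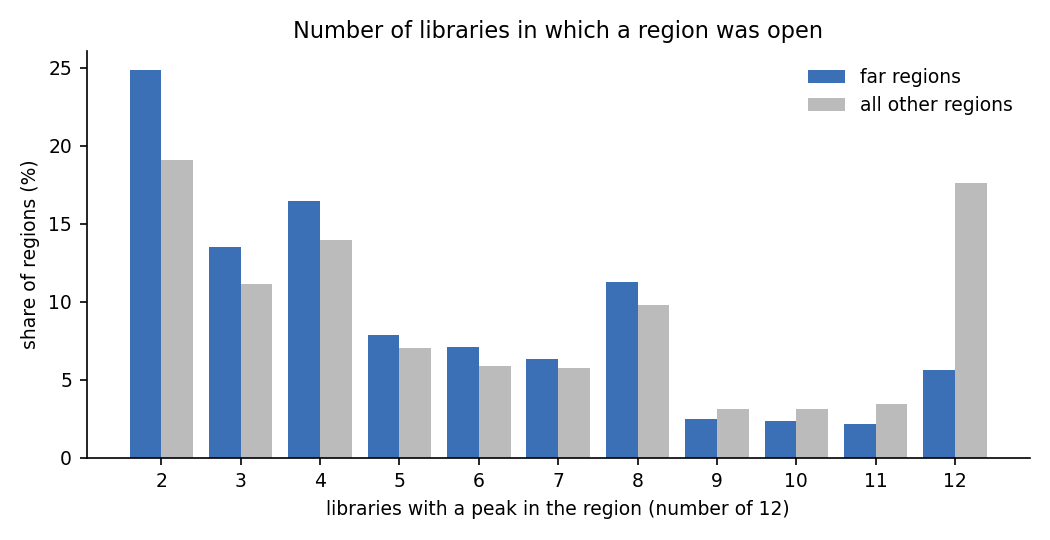
Share of regions (y axis, %) by the number of libraries with a peak (x axis), for the 5735 far regions (blue) and the 78885 other regions (grey). The share open in all 12 libraries was 5.61% of far and 17.6% of other regions.

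Regions far from genes were seldom open in every cell state. A peak in all 12 libraries was found in 322 members, 5.61%, where the share over all regions was 16.8%. Members open in all 4 naive and no polarized library numbered 455 (7.93%, over all regions 6.56%), and members open in all 8 polarized and no naive library 551 (9.61%, over all regions 7.38%). A peak in all 4 Th2 libraries and no other was found in 210 members (3.66%, over all regions 2.60%), and one in all 4 Th1 libraries and no other in 34 (0.593%, over all regions 0.364%). Naive cells shared few members with 1 lineage alone: 5 were open in all naive and Th2 and no Th1 library (0.0872%, over all regions 0.191%), and 2 in all naive and Th1 and no Th2 library (0.0349%, over all regions 0.102%). The number of peaks behind each library ran from 33993 to 54832, so that absence from a short list weighs less than absence from a long one.

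The 322 members open everywhere had a median width of 832.5 bp, wider than the members as a whole, and a median percentile of 76.3. The strongest by their weakest library were 2 neighbouring regions at chr2:98662222-98663032 and chr2:98666151-98667441, more than 1 Mb from Lrrc4c, with percentiles of 99.9 to 100 in every library. This stretch and the start of chromosome 12, which held the member at chr12:3109824-3110245 (percentiles 96.1 to 99.9), belong to intervals of repeated sequence that studies of the mouse genome often mask, and the part of repeats in their peaks was not tested. The other members of the first 5 lie beside T cell genes. One at chr16:51690620-51691421, 340 kb from Cblb, a ubiquitin ligase that restrains T cell activation, stood at 99.4 to 100. Another at chr17:52162268-52163396, 329 kb from Satb1, an organizer of chromatin in T cells, stood at 96.6 to 99.6.

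Each library held between 1622 and 3079 of the members. Naive wild-type libraries had 2613 and 2677, and naive knockout libraries had 1787 and 1890. Th1 libraries had 2230 and 1622 in wild type, and 2469 and 2281 in knockout. Th2 libraries had 2948 and 2786 in wild type, and 3079 and 2835 in knockout. The highest numbers were those of the Th2 libraries, and the lowest came from the library with the fewest peaks.

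As a share of the regions open in a library, members made up 5.49% and 5.45% in naive wild type, with 4.76% and 4.75% in naive knockout. The shares were 5.47% and 4.99% in Th1 wild type, 5.97% and 5.62% in Th1 knockout, 6.05% and 5.90% in Th2 wild type, and 6.15% and 5.98% in Th2 knockout. The mean of the Th2 libraries, 6.02% ± 0.105 (SD, n = 4), was above that of the Th1 libraries, 5.51% ± 0.408 (SD, n = 4). By an exact two-sided permutation test over libraries p was 0.0571, and 0.129 after Benjamini-Hochberg adjustment over the 9 group tests (3 measures by 3 comparisons), so the difference did not pass 0.05. Wild-type libraries alone, free of the pair with conflicting labels, had means of 5.98% in Th2 and 5.23% in Th1. Between polarized knockout and wild-type libraries the share differed by 0.328 points (exact permutation p = 0.229, adjusted 0.343), and between naive and polarized samples by -0.653 points (exact permutation p = 0.133, adjusted 0.24).

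**Figure D2:**
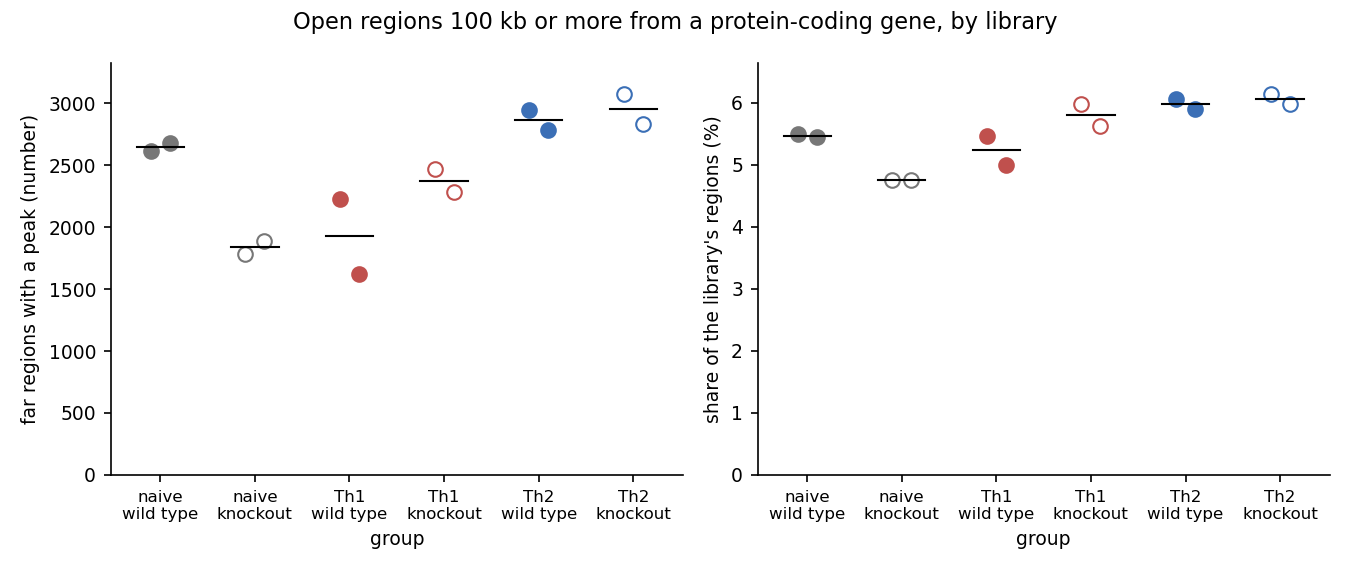
Number of far regions with a peak (left, y axis) and their share of the regions open in the same library (right, y axis, %) for each of the 12 libraries by group. Points are libraries, filled for wild type and open for knockout, and bars are means of 2. The naive pairs are technical replicates, and the knockout pair lies below the wild-type pair in naive cells and above it in Th1 cells.

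Within every sample, peaks in far regions had a lower median score percentile and were narrower than peaks elsewhere. The median percentile of far regions was 44.7 to 51.4 over the 12 libraries, against 51.9 to 54.8 for the other regions of the same libraries. The difference was -4.09 ± 1.92 points (SD, n = 10 samples, naive pairs averaged) and lay below 0 in 10 of 10 (exact sign-flip permutation p = 0.00195, adjusted over 2 tests 0.00195). The median width of far peaks was 357 to 407 bp, against 394 to 430 bp, a difference of -29.5 ± 10.2 bp that was also below 0 in 10 of 10 (exact sign-flip permutation p = 0.00195, adjusted 0.00195). Both p-values are the smallest that 10 samples allow. The other regions include 8885 in promoter windows of protein-coding genes, and their part in both differences was not tested. The median fold enrichment over the caller's background, the authors' value, was lower in far than in other peaks in the 4 naive libraries (4.73 to 5.24 against 4.81 to 5.33). It was higher in far peaks in each of the 8 polarized libraries (4.02 to 4.25 against 3.97 to 4.18).

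The far peaks of Th2 libraries ranked somewhat higher than those of Th1 libraries. Their mean median percentile was 50.6 ± 0.781 against 48.7 ± 0.824 (SD, n = 4 each), with no overlap between the 4 and 4 libraries (exact permutation p = 0.0286, adjusted 0.129). Their median width was 398 ± 6.70 against 377 ± 11.2 bp, also without overlap (exact permutation p = 0.0286, adjusted 0.129). The p of 0.0286 is the smallest that 4 against 4 can give, and neither difference passed after adjustment. The order of the percentiles turned, to -0.279, when a library was required to cover at least 0.5 of a region. Naive samples had a lower median percentile than polarized ones (46.7 ± 1.09, n = 2, against 49.6 ± 1.26, n = 8, exact permutation p = 0.0444, adjusted 0.129). Without 1 of the naive wild-type libraries this difference became 1.56 or 2.15. Members that only the naive wild-type pair held then also drop out, and their part in the change was not tested. For the genotypes of polarized cells the percentile differed by -0.00216 (exact permutation p = 1) and the width by 2.25 bp (exact permutation p = 0.857, adjusted 0.964).

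The question of the study, what the knockout of the super-enhancer does to open chromatin, was put to the members by counting those open in both libraries of 1 genotype and neither of the other. No p-value per region can be given, because 2 against 2 cannot go below 0.333. In naive cells 830 of 2497 members open in both wild-type libraries had no peak in knockout, 33.2%, where over all regions the share was 20.8%. In the other direction 218 of 1568 (13.9%) were open in knockout only, where over all regions it was 8.67%. In both directions the members' share was the higher one, so far regions were found less often in the second genotype whichever came first.

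The naive loss count rests on few samples and on weak peaks. Of the 830 members, 627 had no peak in any library besides the technical pair, and 203 were left where a peak in at least 3 libraries was required. With as many top peaks from each list as the shortest holds, 349 of 1502 (23.2%) were open in wild type only, where for other regions the share was 11.99%, and 243 of 1218 (19.95%) in knockout only, where it was 12.7%. The members called lost had median percentiles of 28.6 and 32.3 in the 2 wild-type libraries, and those that were not called 62.9 and 64.9. Split by the percentile of the weaker wild-type library, an analysis added after the data were seen, the share of members lost was 62.3% below the 25th percentile, 44.4% from 25 to 50, 14.2% from 50 to 75 and 3.04% above 75. For all other regions, those in genes or nearer than 100 kb to one, it was 49.6%, 26.3%, 7.18% and 0.439%. For the part of them 10 to 100 kb from a gene and outside promoter windows it was 49.9%, 27.9%, 9.14% and 0.758%. At each level of score the far share was thus the higher.

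Regions at marker genes of B cells and red cells were more numerous in naive knockout, and those at myeloid genes were not. Regions in or within 1 kb of the 11 genes of a B cell list numbered 19 and 19 in naive wild-type libraries and 28 and 29 in naive knockout libraries, and they reached 8 and 8 against 11 and 11 of the 11 genes. In polarized libraries 4 to 7 of the genes had a region, with 20 to 27 regions in all. The promoters of Pax5 and Cd79a, both defining genes of B cells, were open in the 2 naive knockout libraries and in no other. Red cell genes, a list of 8, had 7 regions in each wild-type naive library, 11 and 12 in the 2 naive knockout libraries, and 2 to 6 in polarized ones, and Hbb-bs, which encodes a globin, had a promoter peak in the 2 naive knockout libraries alone. Of 11 myeloid genes 7 or 8 had a region in every library, and Lyz2 and Adgre1 had none in any. Myeloid regions numbered 14 and 16 in naive wild type, 12 and 14 in naive knockout, and 10 to 15 in polarized libraries. Of 30 T cell identity genes 29 or 30 had a region everywhere, and the list's regions numbered 349 and 358 in naive wild type, 230 and 273 in naive knockout, and 174 to 243 in polarized cells. The helper lineage list had 103 and 104, 69 and 79, and 80 to 109. The part of other cells in the naive results was not tested.

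Of the polarized cells, Th1 cells lost 81 of 1451 (5.58%, over all regions 3.97%) and gained 286 of 1890 (15.1%, over all regions 8.65%). Th2 cells lost 105 of 2395 (4.38%, over all regions 3.81%) and gained 152 of 2481 (6.13%, over all regions 4.54%). All regions include promoter windows of protein-coding genes, where losses were 0.448% in Th1 and 0.685% in Th2. Gene bodies outside these windows lost 5.08% in Th1 and 4.79% in Th2, and regions at 0 to 10 kb lost 5.92% and 4.32%. The members' share of losses was thus not above that of every nearer class. Gains in the same gene bodies were 10.1% in Th1 and 5.31% in Th2. With lists of equal length 145 were gained in Th1 and 118 lost. Without the first Th1 wild-type library the gained members came to 610, and without the second, which has the shortest list, 342 were gained and 266 lost. Called members were again those with weak peaks, with median percentiles of 17.4 to 30.0 in the 2 libraries that held them.

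Members that were strong in 1 genotype and absent from the other were rare. The 3 that stood highest in naive wild type among those lost were chr9:32910331-32911041 (percentiles 95.5 and 95.7) and chr9:32925907-32926705 (95.0 and 96.1), both beyond Ets1, and chr15:50512797-50513433 (85.8 and 85.2), 141 kb from Trps1. The gained member with the highest naive scores lay at chr16:93129504-93129930, 303 kb from Runx1, a transcription factor of blood cells, with 79.9 and 76.0 in naive knockout and no peak elsewhere. The others were chr13:101573126-101573561 near Pik3r1 (75.5 and 73.0) and chr1:80030146-80030569 between Serpine2 and Fam124b (70.0 and 70.4).

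In Th1 cells the first lost member was chr9:32915558-32916118, also beyond Ets1, with 93.1 and 71.6 in wild type, followed by chr12:97061588-97061948 (82.7 and 71.0) and chr4:98243429-98244347 (78.8 and 66.9). The last of these kept peaks in naive and Th2 cells of both genotypes. The Th1 gained members that stood highest were chr5:58599773-58600281 (81.8 and 79.9), chr12:90525067-90525506 (82.1 and 65.7) and chr16:77530206-77530702 (77.0 and 64.4). Of these the first and the last also had peaks in all 4 Th2 libraries, wild type included.

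In Th2 cells the first lost member was again chr9:32915558-32916118 (67.1 and 75.3), then chr18:68797826-68798264 (63.1 and 58.1) between Mc2r and Tcf4, and chr9:32908024-32908483 (55.1 and 77.0) beyond Ets1. Gained members were weaker: chr13:31260069-31260323 (73.3 and 69.7), chr11:26961563-26961956 (66.9 and 65.8) and chr15:5778762-5779030 (59.7 and 76.8) came first. Regions beyond Ets1 thus held 2 of the first 3 places in naive loss, the first place in Th1 loss and 2 of the first 3 places in Th2 loss.

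Across all cell states 2 members were open in all 6 wild-type and no knockout library, and over all regions this held for 9 of 84620 (0.0106%). Both lie between Ets1 and Kirrel3. No member was open in all 6 knockout and no wild-type library, and over all regions 1 was (0.00118%). With at least 4 wild-type and no knockout library there were 18 members (0.314%, over all regions 0.207%), 5 of them between Ets1 and Kirrel3. The reverse, at least 4 knockout and no wild-type library, was met by 9 members (0.157%, over all regions 0.125%), none of them in that gap.

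The gap on the side of Ets1 toward Kirrel3 spans 1728 kb of chromosome 9 and held 39 members. Of these 11 had no peak in any knockout library and 28 had one. Along the chromosome 8 members in a row, from chr9:32901119 to chr9:32926705, had no knockout peak. This run of 25.6 kb begins 143 kb beyond the end of Ets1. The run was picked as the longest one without a knockout peak, so absence from all 6 knockout libraries is its definition and checks no label. The deposited files give no coordinates of the deletion.

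The members of the run were open in different cell states of wild type. In naive cells those at chr9:32906262-32906813 (81.1 and 86.4), chr9:32910331-32911041 and chr9:32925907-32926705 were among the strong peaks, and those at chr9:32901119-32901739 (51.5 and 58.9) and chr9:32916829-32917117 (29.6 and 35.5) were seen in naive cells only. The member at chr9:32908024-32908483 was seen in Th2 only. The member at chr9:32924481-32925472 was seen in the 4 polarized wild-type libraries, with 60.5 and 11.3 in Th1 and 44.3 and 44.6 in Th2. The member chr9:32915558-32916118 was open in all 6 wild-type libraries, at 47.1 and 55.7 in naive, 93.1 and 71.6 in Th1, and 67.1 and 75.3 in Th2. The member chr9:32925907-32926705 was open in all 6 too, at 95.0 and 96.1 in naive, 26.3 and 40.8 in Th1, and 14.1 and 50.7 in Th2.

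Both edges of the run had peaks in knockout cells. The member before it, chr9:32897138-32897867, was open in the 8 polarized libraries of both genotypes. The member after it, chr9:32928294-32929031, stood at 98.5 and 98.2 in naive wild type and at 9.7 and 4.0 in naive knockout, and in polarized cells it had a peak in the 4 wild-type libraries and no knockout library.

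Outside the run 31 members of the gap remained, and most were open in both genotypes of polarized cells. Of the 13 that both naive wild-type libraries held, 5 were absent from naive knockout, and 1 was gained there. Th1 cells lost 2 and gained 2 of the 31, and Th2 cells lost 1 and gained 1. A member at chr9:32941125-32941956, 183 kb beyond Ets1, was strong in polarized cells of both genotypes (86.1 to 99.1), weaker in naive wild type (12.8 and 33.9) and without a peak in naive knockout. The member at chr9:33060365-33061576, 303 kb beyond Ets1, was the only one of the 39 open in all 12 libraries, at 89.4 and 89.4 in naive wild type, 63.0 and 76.7 in naive knockout, and 90.1 to 98.9 in polarized cells. In the gap 5 of the 39 members were open in all 8 polarized and no naive library, where over all regions the share was 7.38%. Of these chr9:32999960-33000747 (80.4 to 95.9) was the strongest by its weakest library. The 2 farthest members, 717 and 725 kb beyond Ets1, were seen in naive cells only: chr9:33475097-33475405 in the knockout pair (12.5 and 42.2), and chr9:33483124-33483910 at 38.1 and 42.5 in wild type and 80.6 and 85.5 in knockout.

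**Figure D3:**
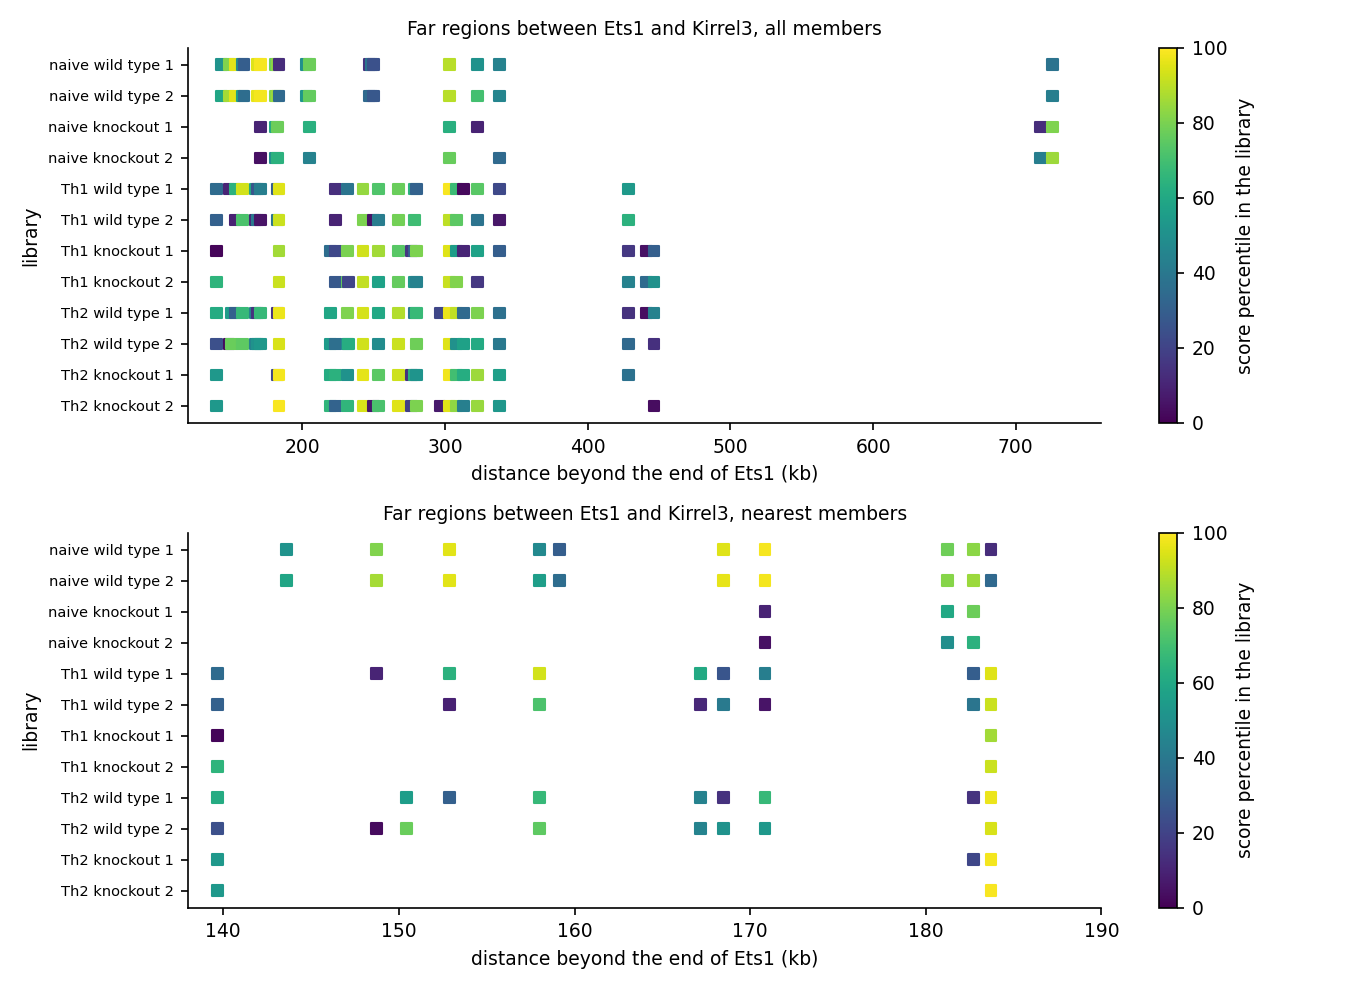
The 39 far regions between Ets1 and Kirrel3 by distance beyond the end of Ets1 (x axis, kb) in each library (y axis), all of them above and the nearest ones enlarged below. A square is a peak, coloured by its score percentile in that library, and no square means no peak. In the run of 25.6 kb that begins at 143 kb the 6 knockout libraries have no square.

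Between Th1 and Th2 cells of wild type, members told the lineages apart more often than other regions did. Of 2395 members open in both Th2 libraries 711 (29.7%) had no peak in Th1, where over all regions the share was 19.6%. Of 1451 members open in both Th1 libraries 148 (10.2%) had no peak in Th2, over all regions 5.86%. In knockout cells the numbers were 570 of 2481 (23.0%, over all regions 16.1%) for Th2 and 208 of 1890 (11.01%, over all regions 6.85%) for Th1. In wild type the called members had the weaker peaks. Median percentiles were 36.5 and 38.3 for Th2-only members, against 68.6 and 65.8 for members not called. For Th1-only members they were 30.5 and 30.0, against 66.8 and 56.0. With equal lists 375 members were seen in wild-type Th2 only, 24.6%, and 199 in Th1 only, 15.4%, where other regions gave 13.2% and 11.5%. The excess of Th2 over Th1 was therefore smaller with equal lists. The wild-type shares were also split by the percentile of the weaker library at 25, 50 and 75, after the data were seen. Th2-only were 52.6%, 36.8%, 21.5% and 4.78% of members, and 43.3%, 28.3%, 15.7% and 3.83% of regions 10 to 100 kb from a gene, outside promoter windows. Th1-only were 22.6%, 10.9%, 3.09% and 1.34% of members, and 14.6%, 9.34%, 3.23% and 0.481% of those regions. From 50 to 75 the members' Th1-only share was thus not the higher.

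Most members that set wild-type Th2 apart were also open in Th2 cells of the knockout. Of the 711, 81.3% and 77.5% had a peak in the 2 Th2 knockout libraries, 35.4% and 27.6% in the Th1 knockout libraries, and 12.8% and 13.9% in naive wild type. Of the 148 Th1-only members 64.2% and 67.6% had a peak in Th1 knockout libraries, 25.7% and 21.6% in Th2 knockout libraries and 24.3% and 23.6% in naive wild type. Calls made separately in each genotype shared 238 Th2-only members, 33.5% of the wild-type and 41.8% of the knockout calls. They shared 43 Th1-only members, 29.1% of the wild-type and 20.7% of the knockout calls.

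The Th2-only member with the highest scores was chr11:14157150-14157843, 441 kb from Pom121l12, at 95.1 and 96.3 in wild type and 81.3 and 92.8 in knockout, with no other peak. The next were chr5:58599773-58600281, 467 kb from Pcdh7 (91.1 and 90.9), which was also open in Th1 knockout, and chr8:126754780-126755460, 161 kb from Irf2bp2 (90.8 and 91.3). The first Th1-only member, chr6:103355174-103355915 (81.3 and 87.4), 155 kb from Chl1, was open in both Th1 knockout libraries (86.5 and 67.0) and in 1 Th2 knockout library (21.8). The next, chr1:94827572-94828118, lies 486 kb from Fam174a, the nearer gene, and 775 kb from Pdcd1, the gene of the checkpoint receptor PD-1, on its other side. This member was open in the 4 Th1 libraries alone, at 95.3, 80, 87.5 and 95.1. The other, chr1:112457401-112457777 (82.1 and 76.4), lies 592 kb from Dsel.

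From 50 kb outward, regions that lay farther from a gene were less often open everywhere, and were more often called in naive loss, in Th1 gain and as Th2-only. The share open in all 12 libraries was 75.9% of 8885 regions in promoter windows, 10.3% in the other parts of gene bodies, 10.3% at 0 to 10 kb, 10.2% at 10 to 50 kb, 9.22% at 50 to 100 kb, 6.08% of 3111 members at 100 to 200 kb, 5.62% of 2029 at 200 to 500 kb and 3.19% of 595 at 500 kb or more. Over the same steps the share lost in naive knockout was 1.57%, 24.9%, 22.8%, 22.6%, 25.01%, 28.4%, 37.3% and 45.9%. From gene bodies to 50 to 100 kb it showed no steady rise. That of Th2-only regions in wild type was 2.30%, 23.1%, 22.6%, 23.1%, 25.9%, 27.7%, 30.4% and 38.3%. That of regions gained in Th1 knockout was 1.46%, 10.1%, 10.4%, 10.8%, 12.7%, 13.2%, 17.0% and 19.2%. The losses of Th1 knockout had no such order, with 6.40%, 4.19% and 6.14% in the 3 far classes, nor had the Th1-only regions of wild type, with 9.85%, 10.9% and 9.65%.

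With lists of equal length the shares at 50 to 100 kb and in the far classes rose in order for naive loss (15.3%, then 20.2%, 26.2% and 31.3%), for naive gain (17.5%, then 18.6%, 20.4% and 27.5%) and for Th2-only regions (19.01%, then 21.5%, 26.7% and 35.0%). They did not for Th1 gain (9.25%, then 7.99%, 12.8% and 15.97%). With a peak required in at least 3 libraries naive loss was 8.21% at 50 to 100 kb and 9.40%, 12.2% and 15.7% in the far classes, and Th2-only regions 24.9%, then 26.6%, 29.6% and 36.3%. Naive gain (2.84%, then 2.99%, 2.95% and 0%) and Th1 gain (9.96%, then 10.999%, 14.3% and 13.7%) then did not rise in every step. Both settings were applied to the distance classes after the data were seen. The farthest members were weak or in few libraries, except chr1:102628093-102628449, 2137 kb from Cntnap5b, which had a peak in 9 libraries and reached 91.2 in Th1 wild type. The next were chr14:90447983-90448343, 1977 kb from Pcdh20, in the 2 Th1 knockout libraries (58.2 and 57.8), and chr1:48881430-48881739, 1956 kb from Slc39a10, in the naive wild-type pair (27.4 and 4.9).

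**Figure D4:**
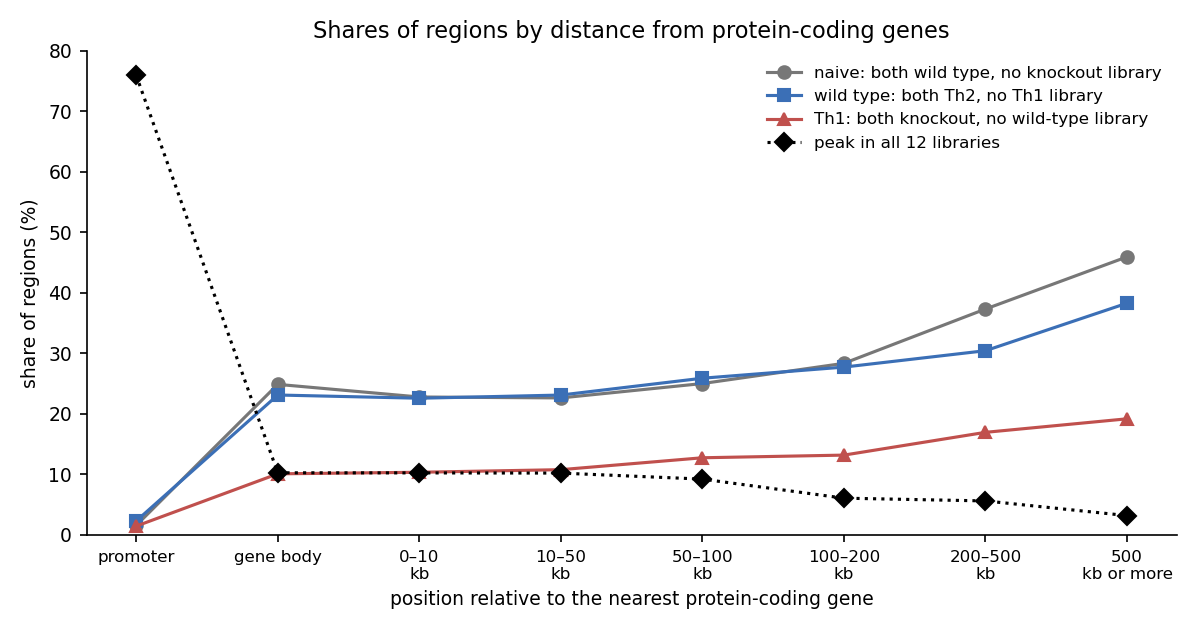
Share of regions (y axis, %) by position relative to the nearest protein-coding gene (x axis), for regions open in all 12 libraries and for 3 calls, each as a percentage of those with peaks in the pair of libraries of its first group. The 3 classes at the right are far regions, where naive loss reaches 45.9% and the share open in all libraries falls to 3.19%.

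The members were spread unevenly over the genome. Of 1393 gaps of 200 kb or more between neighbouring protein-coding genes 700 held a member and 693 held none. As few as 77 gaps (5.53%) held 50% of the members, and the 10 with most held 750 (13.1%) in 15.2 Mb of the 680 Mb that lie far from genes. The mean density was 0.839 members per 100 kb of such sequence. The widest gaps without a member were those of Celf4 to Pik3c3 (4511 kb) on chromosome 18 and Igfbp7 to Adgrl3 (3611 kb) on chromosome 5. Density was highest in the gap of Smim20 and Rbpj, the mediator of Notch signals (19.4 per 100 kb), and in that of Tnfaip3, an inhibitor of NF-κB, and Olig3 (19.1 per 100 kb), among gaps with at least 10 members. Of the 15 members beside Rbpj 8 were open in all 8 polarized and no naive library, where over all regions the share was 7.38%.

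The first gap by number lies on chromosome 15 beside Myc, which drives cell growth, and reaches to Gsdmc. Its 123 members were open to different extents in the 3 cell states: 33 and 34 in naive wild type, 22 and 27 in naive knockout, 45 to 69 in Th1 and 81 to 92 in Th2 libraries. The groups of the 3 states did not overlap. Of the 123, 25 were open in all 8 polarized and no naive library, where over all regions the share was 7.38%. In the 2 Th2 wild-type libraries 92 and 81 were open, and 16 were Th2-only in wild type. Over all regions 19.6% of those open in both Th2 wild-type libraries were Th2-only. The long non-coding gene Pvt1, in this gap, overlapped 25 of the members of the series.

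Gaps beside regulators of T cells made up most of the others. The gap from Id2, an inhibitor of E proteins, to Rnf144a held 88 members, with 53 to 58 in Th2 and 30 to 43 in the other libraries. Of the 88, 12 were open in all 12 libraries, where over all regions the share was 16.8%. That from Satb1 to Kcnh8 held 68, with 49 and 49 in naive wild type, 24 and 27 in naive knockout and 19 to 32 in polarized cells. The gap of Celf2 and Gata3 held 66, of which 41 to 49 were open in Th2 libraries, 16 to 33 in Th1, and 15 to 31 in naive ones. There 15 were Th2-only in wild type, with 47 and 49 open in the 2 Th2 wild-type libraries (over all regions 19.6%). Th1-only was 1, with 31 and 16 open in the 2 Th1 wild-type libraries (over all regions 5.86%). Gaps beside Zeb2 (65), which encodes a repressor in effector cells, Foxo1 (64), a factor of naive cells, Cblb (59) and Ptger4 (58), a receptor of prostaglandin E, followed. The mean number open in naive, Th1 and Th2 libraries was 18.5, 32 and 37.25 in the Cblb gap, 19.5, 28.25 and 35 in the Zeb2 gap, 18.5, 25.5 and 34 in the Ptger4 gap, and 36, 23 and 34 in the Foxo1 gap. In the Foxo1 gap the density was 14.8 members per 100 kb.

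**Figure D5:**
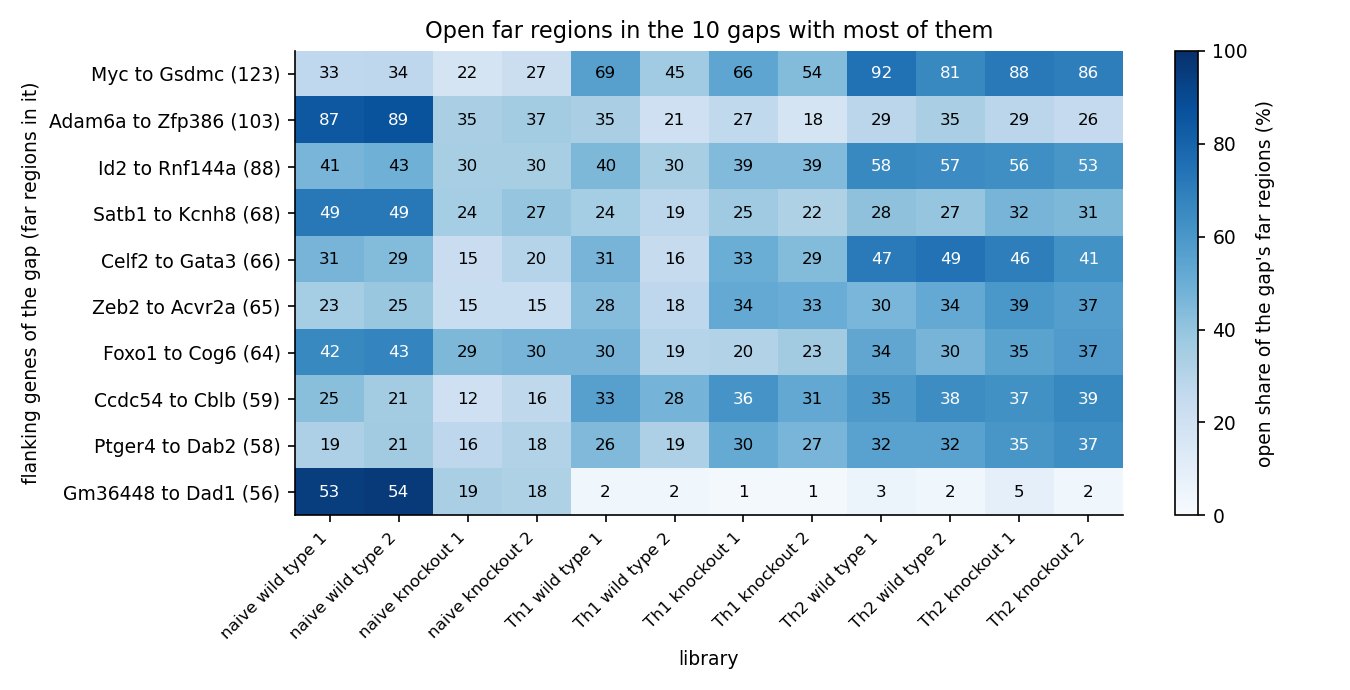
Number of open far regions (printed in each cell) in the 10 gaps with most members (y axis, flanking genes and members) in each library (x axis). Colour gives the open share of the gap's members (%). The gap from Myc to Gsdmc is most open in Th2 libraries, and the gap from Gm36448 to Dad1 is open in naive libraries and hardly in polarized ones.

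Of the first 10 gaps 2 are antigen receptor loci, whose segments the annotation does not count as protein-coding genes. The locus of T cell receptor alpha (Tcra), in the gap from Gm36448 to Dad1 on chromosome 14, overlapped 56 members. Of these 53 and 54 were open in naive wild type, with 19 and 18 in naive knockout and 1 to 5 in each polarized library. The immunoglobulin heavy-chain locus (Igh) on chromosome 12 overlapped 109 members, 87 and 89 of them open in naive wild type, 36 and 39 in naive knockout and 22 to 39 in polarized libraries. In naive knockout 29 of 53 members of Tcra (54.7%) and 45 of 86 of Igh (52.3%) that both wild-type libraries held were lost, where 20.8% of all regions were. The loci of the immunoglobulin light chains went the other way: of 12 members in Igk 1 and 1 were open in naive wild type, with 8 and 9 in naive knockout, and of 4 in Igl 1 and 1 against 4 and 3. Igk and Igl are the loci that B cells rearrange for their light chains. The 193 members of the receptor loci made up 3.37% of all members, and without them 754 of 2346 members (32.1%) were lost in naive knockout.

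The next counts are over lists of genes chosen with earlier results of these data known. Of 30 genes of T cell identity 15 (50.0%) flanked a gap with members, where of all 20661 protein-coding genes 6.23% did. A gap of 200 kb or more, with or without members, was flanked by 16 of the 30 genes and by 2374 of the 20661, so the list genes more often bordered a wide gap at all. Of the 19 such gaps of the list 17 (89.5%) held members, where 50.3% of all such gaps did. The 19 gaps held a median of 17 members and 4.69 per 100 kb, where over all such gaps the median was 1 and the density 0.839. These gaps held 530 members, 9.24% of all. Besides those already named they lay beside Tox (56), Runx1 (32), Bcl11b (29), Lef1 (23), Icos (17), the other side of Satb1 (17), Ikzf2 (14), Foxp1 (10) and S1pr1 (5). The gap of Tox and Car8 was most open in naive wild type (41 and 39, against 18 and 21 in naive knockout and 7 to 17 in polarized cells). The gap of Tbc1d5 and Satb1 had 14 and 14 in naive wild type against 3 and 3 in naive knockout, and 2 to 4 in polarized cells.

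Of the members in these gaps 116 of 303 (38.3%) were lost in naive knockout, where 33.2% of all members and 20.8% of all regions were, and 12 of 152 (7.89%) were gained, where 13.9% of all members and 8.67% of all regions were. Of the genes of helper lineages 5 of 29 (17.2%) flanked a gap with members: Gata3, Bcl6 (29 members), Ifng (23), Prdm1 (18) and Maf (9 and 6 on its 2 sides). The 151 members beside them included 28 of 76 (36.8%) that were Th2-only in wild type, where 29.7% of all members and 19.6% of all regions were. Th1-only were 5 of 32 (15.6%), where 10.2% of all members and 5.86% of all regions were. The gap beside Ifng, the Th1 cytokine, had 16 and 17 open in naive wild type, 5 to 8 in Th1 and 7 to 9 in Th2 libraries. The 15 members beside Maf, a factor of Th2 cells, were open 8 to 10 times in each Th2 library and 2 to 4 times in each Th1 library.

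The lists of other cells were shorter. Of their genes 2 of 11 (18.2%) in the B cell list, 3 of 11 (27.3%) in the myeloid list and 2 of 8 (25%) in the red cell list flanked a gap with members, and their gaps of 200 kb or more held 0.640, 3.65 and 1.84 members per 100 kb, beside 3.57 for the helper list. The B cell list had 17 members beside Bcl11a (12) and Ebf1 (5), the myeloid list 9 and the red cell list 9, 5 of them beside Kit and 5 of the myeloid ones beside Cebpb. Of 30 developmental regulators that lie in gene deserts 17 (56.7%) flanked a gap with members, a share above that of the T cell list. They flanked 38 gaps in all, of which 20 (52.6%, over all gaps 50.3%) held members, 305 in all. Most of those lay beside Myc (123 and 47 on its 2 sides) and Sox4 (45). In the Sox4 gap 35 and 34 were open in naive wild type, 14 and 20 in naive knockout and 9 to 15 in polarized cells.

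Of the members 1578 (27.5%) overlapped a non-coding gene of the annotation, 1344 (23.4%) a long non-coding RNA gene, and 4157 (72.5%) no gene at all. After the receptor loci, 2610307P16Rik beside Sox4 on chromosome 13 overlapped most, 35 members, with 32 and 30 open in naive wild type, 12 and 16 in naive knockout and 5 to 9 in polarized libraries. Morrbid overlapped 25, with 15 and 15 in naive wild type, 9 and 10 in naive knockout and 10 to 14 in polarized libraries. Pvt1 overlapped 25, with 13 and 13, 8 and 10, and 11 to 17. Genes of microRNAs lay in 2 members. The member at chr14:105622884-105623820 holds Mir6390 and was open in the 8 polarized libraries only (20.5 to 77.9). The mature sequence of Mir6390 is given with the seed, bases 2 to 8, in capitals.
mmu-miR-6390: gAAUUGAUcaggauguaacca
The other, chr12:114468736-114469608 within Igh, holds Mir7094-1 and was open in 11 libraries, without the first naive knockout library.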

How the data were processed

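ATAC-seq peaks of 12 libraries (6 groups of 2) were used. Per the submitters' processing notes, the authors used BWA, Picard, MACS2 and the build GRCm38, with no version or setting given in the sources used here. Each deposited list has 9 columns per peak, with a score, a fold enrichment (ratio) against background, and p-value and q-value as −log10, per the layout of the deposited files. The deposited score equals 10 times the −log10 q, without decimals. The lists hold no counts, so depth is unknown, counting error could not be computed, and where a list has no peak the DNA may still have been open below the caller's limit. Autosomal peaks per list ran from 33993 to 54832.

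Peaks sharing 1 bp or more were merged, and a region counted as open in each library that contributed a peak to it. Distances were taken to 20661 autosomal protein-coding genes of the GRCm38.p6 table of RefSeq, start to end. A gap is the interval between neighbouring genes. Scores entered only as percentiles within a list. Groups were compared with exact two-sided permutation tests of 1 value per library, and far with other regions by exact sign-flip tests over 10 samples, adjusted by Benjamini-Hochberg. Where nothing beyond the replicate labels is known of the cultures, these p-values measure the spread between libraries. Promoter and microRNA sequences came from RefSeq tables of the same build, and 1712 of 1712 overlapping windows of opposite strands were reverse complements.

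Named were the 10 gaps with most members, all members beyond Ets1, gaps of listed genes with at least 5 members, the 3 highest members per call by the weaker of their 2 libraries, the first 5 open in all libraries, the 3 farthest, and the 5 non-coding genes with most members. The members, lists and rules were chosen with earlier results of these data known. Chromosomes X and Y were not used here. The code was run on simulated data, where 200 of 200 far regions planted as lost in naive knockout were found among 84620 regions. In all 280 far regions were called lost there. The planted regions were given a peak in every naive wild-type library and none in naive knockout. Their recovery thus checks the code and not how reliable a call is. Of 500 distances checked, 500 equalled those by direct search. Alternatives are given in the closing section. The tools were scipy 1.17.1, pandas 2.3.3 and numpy 2.4.6 in Python 3.11.15, with matplotlib 3.10.9 for figures.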

Additional observations from a re-analysis of the deposited data

Results flagged for a closer look

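The share of far regions among the regions open in a library moved in opposite directions with genotype in naive and in Th1 cells, with every library of 1 genotype on the same side of the other. Knockout minus wild type was -0.712 percentage points in naive cells (means 4.76% and 5.47%) and 0.568 percentage points in Th1 cells (means 5.80% and 5.23%). In Th2 cells the difference was 0.0876 points and the libraries overlapped. The difference between the cell types was not tested, since the naive libraries are technical replicates of 1 sample per genotype. Beside it, the naive knockout lists were shorter than those of naive wild type (40118 and 42791 against 51262 and 54831 peaks), and the second Th1 wild-type list was the shortest of all with 33993. The part of list length was not tested.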

How the results depend on the processing

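The lower percentile and smaller width of far peaks against other peaks kept their sign and passed 0.05 under every setting with tests. Percentile differences were -4.46 (50 kb) to -2.36 (equal lists). None of the 9 group differences passed the adjusted threshold under any of these settings. For a peak in at least 3 libraries only counts are given, without tests. With a limit of 50 kb the far regions came to 9855 and the calls to 1300 lost and 395 gained in naive cells, 133 and 471 in Th1, 172 and 250 in Th2, 243 Th1-only and 1182 Th2-only. With 200 kb these were 2624, 437 and 100, 29 and 152, 46 and 73, 68, and 348. A peak in at least 3 libraries left 203 lost and 38 gained in naive cells and 67 lost and 87 gained in Th2, by construction without members open in 2 libraries only. A q-value of at most 0.01 left 188 gained in Th1. Lists of equal length left 349 lost in naive cells, 145 gained in Th1, 93 gained in Th2 and 375 Th2-only.

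The percentile difference of knockout and wild type changed sign to 0.218 at that q-value and to 0.394 with equal lists, and the matching width to -3 bp at 200 kb. With 0.5 of the region to be covered the width difference was -4.63 bp and the percentile of Th2 minus Th1 -0.279. The cause was not tested.

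Leaving out each library in turn, naive losses ran from 258 to 1075 and gains from 66 to 260, Th1 losses from 80 to 266 and gains from 284 to 610, Th2 losses from 105 to 283 and gains from 151 to 338, Th1-only regions from 148 to 324 and Th2-only regions from 711 to 1141. A group left with 1 library has easier calls by construction. Members that only its pair held, however, then fall below the limit of 2 libraries and drop out. Naive losses of 283 and 258 came without either naive wild-type library, and gains of 71 and 66 without either naive knockout library. The Th2-only count of 1141 came without the first Th1 wild-type library, and the Th1-only count of 324 without the second. Th1 losses were 151 and 157 without either Th1 knockout library, and gains 557 without the second. Th2 losses were 197 without the second Th2 wild-type library and 283 and 209 without either Th2 knockout library. Th2 gains were 338 and 289 without either Th2 wild-type library and 241 without the second Th2 knockout library. The percentile difference ran from -0.551 to 0.834 for genotype and from -3.48 to 2.15 for naive minus polarized, and the width difference from -5.04 to 9.92 bp and from -9.75 to 10.5 bp.

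With a replicate block, pairing Th1 and Th2 libraries by replicate number, the differences of 0.508, 1.91 and 20.8 bp had an exact sign-flip p of 0.125, the smallest that 4 pairs allow. The deviations of same-numbered libraries correlated by -0.00268 in wild type and 0.0141 in knockout, so the numbers were not taken as pairs. Counting the antigen receptor loci as coding, a setting chosen after seeing the data, moved no count by over 1.5 times and turned no direction. The percentile difference of genotypes went from -0.00216 to -0.0657 there. The test of GC content was not run, as no genome was used here.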
